A study of Saccharomyces cerevisiae with 18 samples.

Results

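The genes described are those of the cytosolic ribosomal proteins of budding yeast. They were chosen by name from the R64 annotation: every protein-coding gene whose symbol is RPL or RPS with a number and an optional A or B, together with RPP0, RPP1A, RPP1B, RPP2A and RPP2B. The rule gave 137 of 6002 nuclear protein-coding genes, namely 56 RPS genes of the small subunit, 76 RPL genes of the large subunit and 5 RPP genes of the acidic stalk. They form 59 pairs named A and B and 19 single genes, and 89 of them have at least 1 annotated intron within the coding stretch. The libraries came from the wild-type diploid strain SLS045 (S288c background) in mid-log growth on yeast extract and peptone with 1% glucose or 1% galactose. TIF-Seq places each polyadenylated molecule by its joined 5' and 3' end. The 18 libraries fall into 6 groups: 6 standard libraries per medium, 2 per medium made to enrich long molecules, and 1 per medium made from molecules that lack a cap. The standard libraries include repeated preparations of the same culture. By their titles, all in glucose came from the cultures numbered 1 and 2, and those in galactose from more cultures. Each group was deposited as 1 summed column of reads, so no spread between cultures could be computed, no test over samples was possible, and the contribution of a single library to any value was not tested. All intervals are 95% intervals that cover counting error only, and reads copied by PCR are not independent molecules.

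Cytosolic ribosomal proteins are made from some of the most abundant mRNAs of a growing yeast cell, and their genes are known to be transcribed together under Rap1, Fhl1, Ifh1 and Sfp1 in response to nutrients. Most are kept as paralog pairs that descend from the duplication of the whole genome. Intron-containing genes are rare in this yeast, and ribosomal protein genes make up a large part of them. Several of the proteins are known to limit their own production by binding their own transcript, among them Rpl30, Rps14, Rps9, Rpl22 and Rps28.

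The windows around the most used start of 7 genes show the sequence at which their molecules began. They are the 3 most-read genes RPS3, RPS2 and RPL23B, the copy RPL23A, RPL18B, whose reads differed between media, and the RPL15 pair, the most unevenly used. Each window was read from the R64 genome with 20 bases before the start and 10 from it, and the capital marks the first base of the molecule.
RPS3: ttgataactgaaaataaaacAgcaaacaaa
RPS2: ttttcaatcccaaagaaaccGtgttcttta
RPL23B: ttcgaaataatcgagaaatcAcgataataa
RPL23A: cttacaagcaatacaaaaccAacacaccta
RPL18B: ggaaatagaaagaaaaaatcAattagaaga
RPL15A: ttttacaatctaagaaaaccAcgatcaaac
RPL15B: agtaatcggcgaaagctaccGtaaagacag
The windows lie at chrXIV:302642-302671 (+), chrVII:277499-277528 (+), chrV:396729-396758 (+), chrII:60753-60782 (-), chrXIV:64577-64606 (-), chrXII:202604-202633 (-) and chrXIII:510374-510403 (-), in the order shown. RPS2 and RPL15B began with G and the other 5 with A, and all 7 starts followed a C. Over 50 genomic bases from the start the copies of a pair were 66.0% identical at the median of 59 pairs. Over the coding sequence without introns the median was 93.2%. The 50-base stretch can include intron, since in 43 genes the intron lay at most 40 nt from the median start. Of the 135 genes with at least 20 reads in standard glucose, 101 (74.8%) had A as the first base and 28 (20.7%) had G. Among 2965 other genes measured the same way, A stood first in 82.3% and G in 16.3%. A C or T came directly before the start in 129 ribosomal protein genes (95.6%) and in 98.0% of other genes.

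The letters CCCNTACA, a core of the sequence that Rap1 is known to bind, were found on either strand within 500 bases before the most used start of 41 of the 135 genes (30.4%), and of 112 of the 2965 others (3.78%). The nearest match lay 281 bases before the start at the median (quartiles 248 and 359), and 5 genes held 2 or more matches. A gene without a match lacks only these letters in this window.

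Ribosomal protein genes took 42.6% of all reads that covered a single coding stretch in standard glucose (2464123 of 5779509) and 35.4% in standard galactose (2042724 of 5769844). In the long-enriched columns the shares were 16.9% and 12.5%. In the non-capped columns 20164 of 71970 and 19288 of 73517 such reads were theirs. In standard glucose 62 of the 100 most-read genes were ribosomal protein genes. The table held 6290819 reads in standard glucose, 6425269 in standard galactose, 2745847 and 3559614 in the long-enriched columns, and 1317650 and 1100551 in the non-capped ones, in the same order of media.

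RPS3 and RPS2, proteins of the small subunit at the path of the incoming mRNA, were read most. RPS3 had 209536 reads in standard glucose, 113583 in standard galactose, 46989 in long-enriched glucose and 41457 in long-enriched galactose. RPS2 had 205137, 133416, 37383 and 24161 reads in the same order. The pair took 16.8% of all ribosomal protein reads in standard glucose, and the 10 most-read genes took 40.5%. RPL23B followed with 120276 reads, and among the next genes RPS11B had 78940, RPS16B 72962 and RPP2A, an acidic stalk protein, 70393. RPL3, a core protein of the peptidyl transferase region, had 48173 reads and RPL10, which joins the subunit late, had 13885. The median over all 137 genes was 9584 reads in standard glucose, with quartiles at 4353 and 19188.

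A pair of single-copy genes was nearly missing. RPL39 had 4, 7, 2 and 0 reads in the 4 capped columns (standard glucose, standard galactose, long-enriched glucose, long-enriched galactose), and RPS20 had 3, 0, 0 and 1. Both had 0 reads in both non-capped columns. These genes are not in those of the following counts and medians that need 20 reads.

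Each molecule gives a single pair of ends, so reads need no division by length, but recovery depends on the length of the molecule. Spans given here are distances on the genome between the median ends of a gene, introns included. They exceed the length of a spliced molecule, and spliced lengths were not compared. From standard to long-enriched glucose the reads of ribosomal protein genes fell by a median of 2.67 on the log2 scale (132 genes with at least 500 standard reads). These falls were not scaled for depth, and the 2 columns held 5779509 and 2455839 reads that covered a gene. A part of every fall given here is therefore the smaller depth of the long-enriched column. For 631 other genes of at most the same span, 1793 nt, the fall was 1.82. A few genes lost far more: RPL33A went from 18951 reads to 43, RPL21A from 12535 to 33, RPL33B from 9232 to 94, RPL25 from 1073 to 14, RPS27B from 3413 to 56 and RPL31A from 21711 to 539. These are all intron-containing genes with spans on the genome between 861 and 1014 nt, close to the median of 924 nt over all ribosomal protein genes. Levels of these 6 genes therefore differ strongly between the protocols, and 10 of the 631 other genes fell by as much (more than 5 on the log2 scale).

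On galactose, ribosomal protein genes as a group took a smaller part of the reads than on glucose. Reads were scaled between media by the trimmed mean of M values (TMM), and a gene was called when its ratio reached 2-fold in each protocol and neither interval included 1. Of 135 measured genes, 3 were called lower and 0 higher. Over all 3581 measured genes 2.51% were called lower and 6.45% higher, so the share of ribosomal protein genes called lower (2.22%) was near that of all genes. The 3 genes were RPL18B, RPL7B and RPS2, and RPL18B and RPL7B are each the less used copy of their pair.

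RPL18B had 16906 reads in standard glucose, 8502 in standard galactose, 2974 in long-enriched glucose and 1648 in long-enriched galactose. It was 2.74-fold lower in galactose in the standard protocol (2.67 to 2.81). The long-enriched protocol gave 2.59-fold (2.44 to 2.75). RPL7B had 8925, 5716, 2449 and 1731 reads, and was 2.15-fold lower (2.08 to 2.23) and 2.03-fold lower (1.91 to 2.16). Its second interval reached below the 2-fold limit. RPS2, with the reads given above, was 2.12-fold lower (2.11 to 2.13) and 2.22-fold lower (2.18 to 2.26). None of the 3 was called when reads were scaled by the total of each column, since their ratios were then less than 2-fold in the standard protocol.

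The shift was broad and small. The median log2 ratio over the 135 genes was -0.57 in the standard protocol (quartiles -0.78 and -0.36) and -0.42 in the long-enriched one, against 0.05 and 0.03 over the other genes measured. With scaling by total reads the medians became -0.11 and -0.27, and those of the other genes 0.52 and 0.18. The gap to the other genes, -0.62 and -0.45, does not depend on the scaling. The log2 ratio of 129 of the 135 genes lay below the median of the other genes in the standard protocol, and that of 128 in the long-enriched one.

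The lowest standard ratios among genes with at least 20 reads in each capped column were those of RPL33B, RPL18B and RPP0. RPL33B had 9232 and 4463 reads in standard glucose and galactose but 94 and 91 in the long-enriched columns, where its ratio was 0.675 instead of 0.351. RPP0, the anchor of the stalk, had 24569, 12523, 3244 and 2426 reads, with ratios of 0.370 (0.362 to 0.378) and 0.521 (0.494 to 0.550). The highest were RPL15B, RPS30A and RPS25A, with standard ratios of 1.15, 1.13 and 1.13. The long-enriched ratios of RPS30A and RPS25A were 0.954 (0.855 to 1.06) and 1.01 (0.823 to 1.24), so neither was higher there beyond counting error. RPL15B rested on 143, 227, 37 and 60 reads, and both its intervals included 1 (0.930 to 1.43 and 0.738 to 1.75). RPL21A and RPL33A went opposite ways in the protocols: their standard ratios were 0.502 and 0.434, and their long-enriched ratios 2.70 (1.83 to 4.09) and 2.66 (1.89 to 3.81), from 33 and 128 and from 43 and 164 reads.

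**Figure D1:**
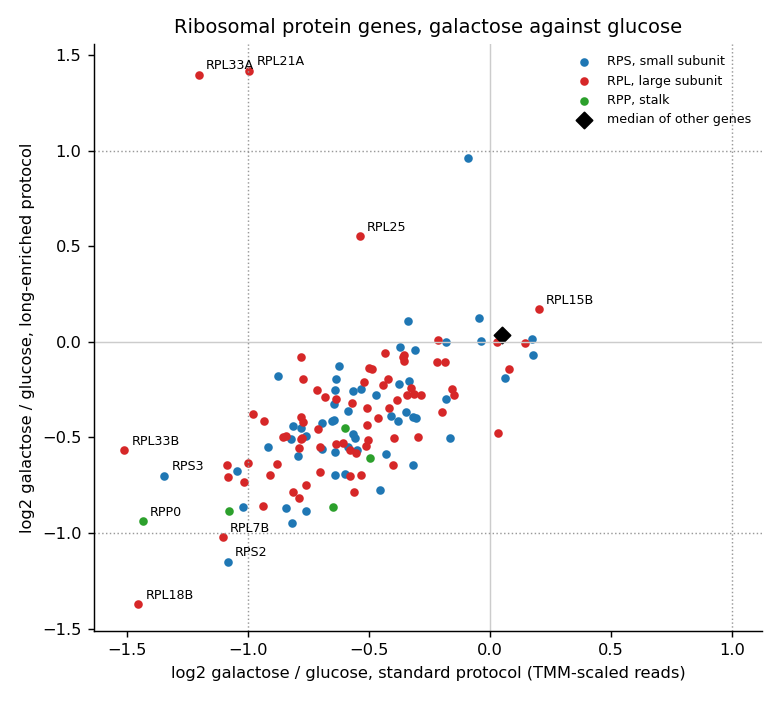
Log2 ratio of TMM-scaled reads, galactose over glucose, in the standard protocol (horizontal) and the long-enriched protocol (vertical) for the 135 measured ribosomal protein genes, with dotted lines at 2-fold. Points are single genes, coloured by subunit; most lie below and left of the median of the other genes (diamond), and RPL21A and RPL33A lie apart at the upper left.

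Sets of related genes were followed in the same comparison, and no gene of any set was called in either direction. Of 10 regulators, 6 had enough reads, with median log2 ratios of -0.43 and 0.17. HMO1, a chromatin protein of these promoters, had 777 reads in standard glucose and 926 in galactose, with 306 and 520 in the long-enriched columns. After scaling, its log2 ratios went opposite ways, at -0.21 in the standard protocol and 0.24 in the long-enriched one. The regulators RAP1 (19 and 17 standard reads) and SCH9 (18 and 19) were read rarely, and IFH1 had 0 reads in all 4 capped columns. All 16 genes of a mixed list of escorts of ribosomal proteins and more general chaperones were measured, with median log2 ratios of -0.50 and -0.44. The standard log2 ratios of the escorts SQT1, RRB1, YAR1 and TSR2 were -0.17, 0.06, -0.27 and -0.25. Those of the escorts SYO1, ACL4 and BCP1 were -0.91, -0.91 and -0.64. Among the general chaperones EGD1, of the nascent polypeptide associated complex, had 32192 and 30200 standard reads. Its log2 ratios were -0.56 and -0.49. SSB1, the Hsp70 at the tunnel exit, had log2 ratios of -0.91 and -0.87. The 10 proteins that bind the cytosolic ribosome but fall outside the name rule had medians of -0.48 and -0.42. ASC1, a scaffold of the small subunit, had log2 ratios of -0.76 and -0.66. The medians of the whole mixed list and of the bound proteins lay close to those of the ribosomal protein genes themselves.

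Most paralog pairs were used unevenly. The more used copy held a median of 73.6% of the pair's reads in standard glucose over 59 pairs (quartiles 62.7% and 83.9%), and 21 pairs gave it over 80%. The A copy led in 32 pairs and the B copy in 27. The proteins of a pair are nearly alike: 21 pairs encode the same protein, and the lowest identity is 61.7%, in RPP1. The ends of the copies differ more, with a median identity of 54.0% over the last 50 bases of the molecule and a highest value of 68.0%, and none of the 59 pairs reached 90% at either end. By the rule used for copies, 94 of the 137 genes nevertheless have a near-identical copy somewhere in the coding sequences. The part of read placement between copies in their counts was not tested.

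The most uneven pairs included RPL15, RPL6, RPP2, RPL41 and RPS16. RPL15A held 96.7% of its pair's reads (4183 reads against 143 for RPL15B, Wilson interval 96.1 to 97.2). RPL6A held 95.4% and RPP2A 93.9%. RPL41A, which with its copy encodes the shortest ribosomal protein, held 91.7% (47409 against 4301). RPS16A held 9.53% (7689 against 72962). The same copy led in all 5 pairs in each capped column. The spans of the copies were alike in these pairs, and differed most in RPL6, at 1048 nt for RPL6A and 1189 nt for RPL6B.

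The 4 most even pairs were RPS19 with 51.2% for the A copy (50.7 to 51.7), RPP1 with 51.4%, RPS4 with 51.4% and RPL40 with 51.7%. RPL40A and RPL40B encode ubiquitin joined to a ribosomal protein, as RPS31 does. Evenness depended on the protocol. In long-enriched glucose the A copy held 40.3% in RPS19, 63.0% in RPP1, 62.3% in RPS4 and 30.1% in RPL40. Over all 59 pairs the share of the A copy differed between the standard and long-enriched glucose columns by a median of 9.30 percentage points.

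The leading copy was the same in standard galactose as in standard glucose in 57 of 59 pairs, and RPS4 was among the exceptions. It was the same in long-enriched glucose in 49 pairs. The 10 others were RPL21, RPL26, RPL2, RPL31, RPL33, RPL40, RPL8, RPS0, RPS19 and RPS1. In RPL21 the A copy held 82.1% of standard and 6.13% of long-enriched glucose reads, as its reads went from 12535 to 33 while those of RPL21B went from 2737 to 505. The spans of the copies, 1004 and 1040 nt, were nearly the same. Which copy leads in such pairs cannot be read from a single protocol.

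Between media the share of the A copy moved by a median of 3.19 percentage points in the standard protocol and 3.06 in the long-enriched one. No pair met the rule for a change, which asked for at least 10 points the same way in both protocols with both intervals excluding 0. RPL22 came closest. Its A copy held 80.3%, 68.3%, 66.3% and 58.1% in standard glucose, standard galactose, long-enriched glucose and long-enriched galactose, which gives differences of -12.0 points (-13.3 to -10.8) and -8.18 points (-11.4 to -4.89). Rpl22 is known to act on the intron of RPL22B. RPL36A had the largest standard difference, -13.1 points (45.0% and 31.9%), and -2.89 points in the long-enriched protocol. RPS9A, whose protein is among those that limit their own production, went from 23.3% to 33.1% and from 35.5% to 39.1%.

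With a limit of 5 points, 8 pairs moved the same way in both protocols, among them RPL20, RPL22, RPL7, RPL8, RPS19, RPS22 and RPS25. RPL7A went from 59.0% to 67.8% and from 62.0% to 68.8%. RPL20A, whose copy encodes the same protein, went the other way, from 84.2% to 76.5% and from 82.4% to 77.3%. RPS22A went from 84.6% to 78.4% and from 86.2% to 79.4%. Its copies have different spans on the genome, 558 nt for RPS22A and 1537 nt for RPS22B, whose leader is the longest of all.

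**Figure D2:**
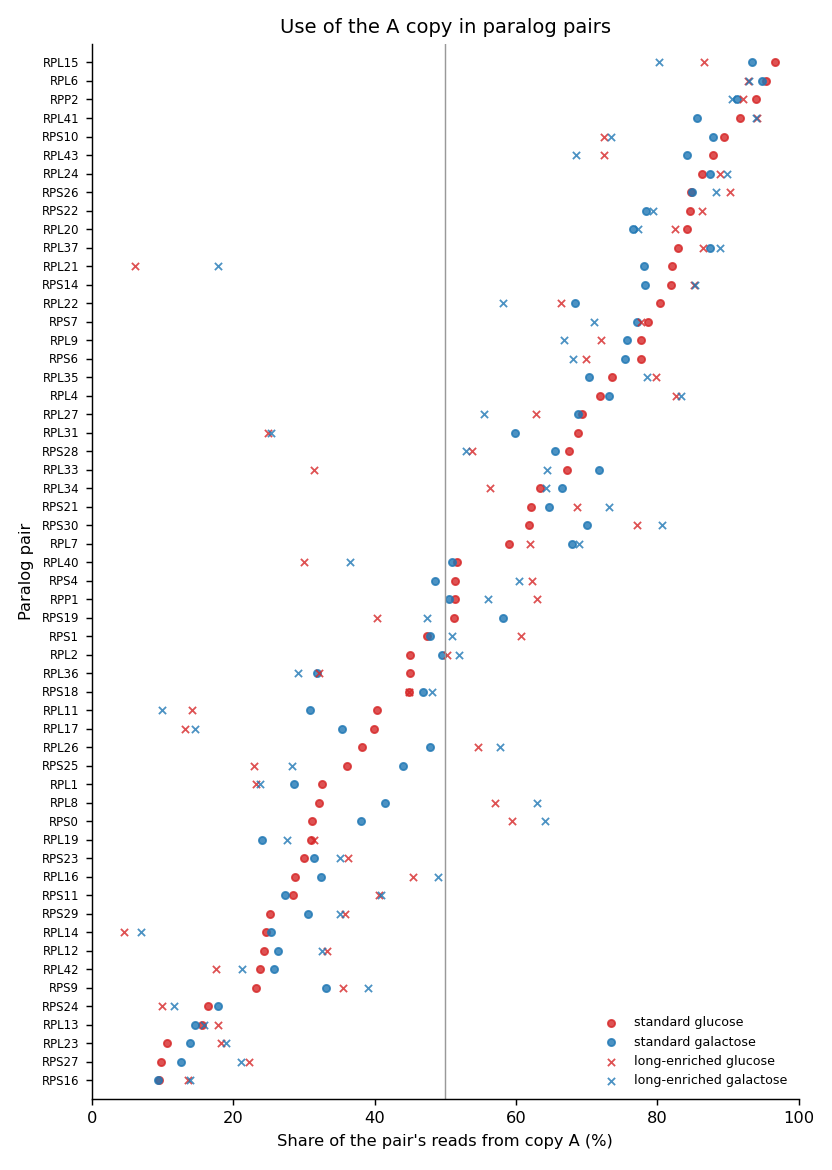
Share of each pair's reads that came from the A copy (percent), for paralog pairs ordered by standard glucose, in the standard (circles) and long-enriched (crosses) protocols, with glucose in red and galactose in blue. Red and blue symbols of a protocol lie close together in most pairs, while circles and crosses lie far apart in pairs such as RPL21, RPL31 and RPL33.

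Leaders, measured from the 5' end of the molecule to the start codon, were short. The median over 135 genes was 25 nt in standard glucose (quartiles 21 and 32) and 42 nt over 2965 other genes (26 and 69). It was 26 nt in standard galactose. The 5' ends were also less spread: the middle 80% of a gene's reads covered 19 nt at the median, against 34 nt in other genes. The most used start held 41.1% of a gene's reads at the median, against 32.1%. In RPL1B, RPL21A, RPS1B, RPP2B and RPS26A the 10th and 90th percentile of the starts coincided. RPL21A had 11946 of 12535 reads at a leader of 22 nt, or 95.3%, and RPS26A had 89.9% at 23 nt.

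Among the shortest median leaders were those of RPL1A (12 nt), RPS28A (12 nt), RPS11A (14 nt) and RPL40A (15 nt, as for RPL16B). RPL1A and RPL1B encode the same protein, but RPL1B had a leader of 64 nt in 13260 of its 15368 reads. The copies of a pair had leaders that differed by 6 nt at the median. RPS2 used distinct starts: 97923 of its 205137 standard glucose reads had a leader of 98 nt and 38805 one of 22 nt. The 98-nt start held 47.7% of reads in standard glucose, 59.5% in standard galactose, 22.4% in long-enriched glucose and 33.6% in long-enriched galactose. It was higher in galactose in both protocols and lower in the long-enriched columns in both media.

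No ribosomal protein gene shifted its median leader by 20 nt or more between media in both protocols. Among 2666 genes with 20 reads in each capped column, 0.788% had a longer and 0.863% a shorter leader in galactose by this rule, with 132 ribosomal protein genes tested.

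**Figure D3:**
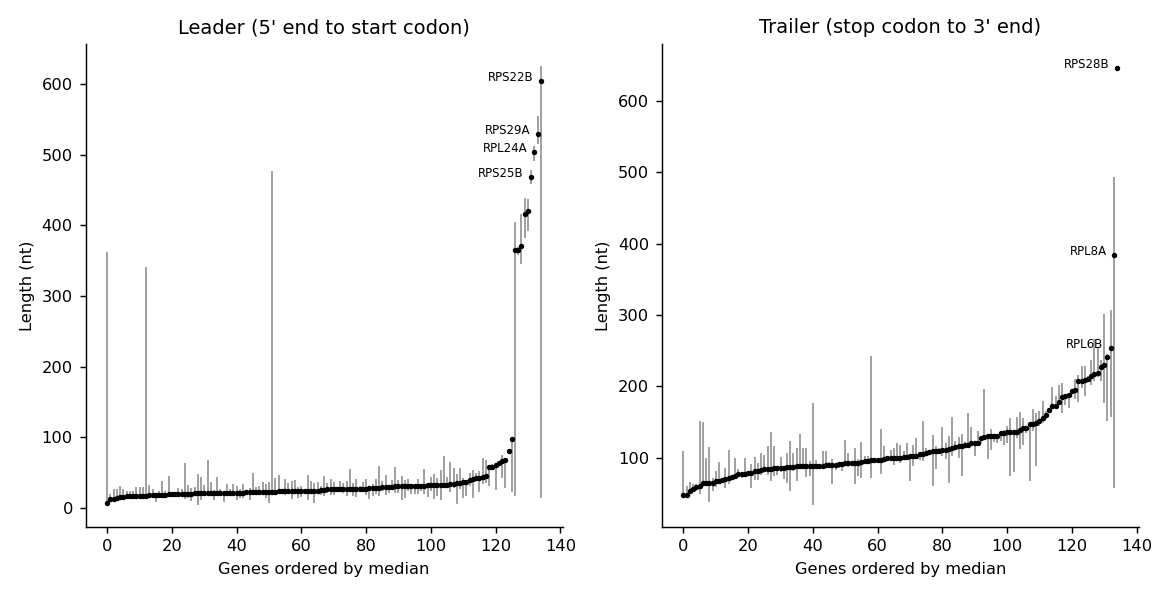
Median leader length (left) and trailer length (right) in nt for 135 ribosomal protein genes in standard glucose, ordered by the median; points are medians over reads and grey bars run from the 10th to the 90th percentile. Most leaders lie near 25 nt, a small set lies above 360 nt, and RPS28B and RPL8A have the longest trailers.

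Starts over 200 nt before the start codon made up at least 10% of standard glucose reads in 12 of 135 ribosomal protein genes (8.89%) and in 217 of 2965 other genes (7.32%), so their share was near that of other genes. Among the 12 were RPL24A, RPL24B, RPL29, RPL32, RPS22B, RPS25A, RPS25B, RPS26B, RPS29A and RPS29B. The longest medians were 605 nt in RPS22B, 530 nt in RPS29A, 504 nt in RPL24A, 468 nt in RPS25B and 421 nt in RPL24B. Several yeast ribosomal protein genes are known to carry an intron in the 5' untranslated part, which the annotation used here does not list, since it gives coding parts only. The table holds the ends of each molecule and not what lies between them, so a long distance to the start codon here is a distance on the genome.

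The stretch from the far start to the start codon was searched on the sense strand for GTATGT, the usual letters at the 5' end of a yeast intron, followed by TACTAAC, the usual branch point. Both stood in this order in 10 of the 12 genes (83.3%). Among 217 other genes with far starts by the same rule, 7 (3.23%) had both in this order. RPL29 lacked GTATGT and RPS25B lacked TACTAAC. Windows of 5 genes are given with the motif in capitals, first the 5' motif and then the branch point.
RPL32: ataaaaGTATGTgacata
RPL32: ctgttaTACTAACaaactt
RPS26B: ggaaaaGTATGTtataag
RPS26B: cctcttTACTAACttcaat
RPL24A: tgagagGTATGTccctat
RPL24A: tagactTACTAACattttt
RPS29A: attaggGTATGTaccaag
RPS29A: catttgTACTAACaacgtt
RPS22B: caacaaGTATGTggacga
RPS22B: gtataaTACTAACgtttca
In R64 they lie at chrII:45639-45656 and 45928-45946 (+), chrV:423585-423602 and 423907-423925 (+), chrVII:438386-438403 and 437979-437997 (-), chrXII:898152-898169 and 898613-898631 (+), and chrXII:855872-855889 and 856401-856419 (+). The GTATGT stood 333 bases before the start codon in RPL32, 361 in RPS26B, 463 in RPL24A, 493 in RPS29A and 564 in RPS22B. The TACTAAC stood between 32 and 57 bases before the start codon in these 5 genes.

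In 9 of the 12 genes at least 85.2% of standard glucose reads began far upstream, from RPS22B at 85.2% to RPL32 at 99.5%. RPS29B had 34.2% far starts, and the largest set of its remaining reads, 10121, began 22 nt before the start codon. The window of this near start, with 20 bases before the start and 10 from it, has the first TAG or CAG after the TACTAAC in capitals.
RPS29B: tattcaattttgaaaacttattggttaTAG
It lies at chrIV:340811-340840 (-), and the triplet ends at base 10 of the molecule. The share of far starts of RPS29B was 42.7% in standard galactose against 34.2% in standard glucose, and 30.7% against 29.8% in the long-enriched columns.

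**Figure D4:**
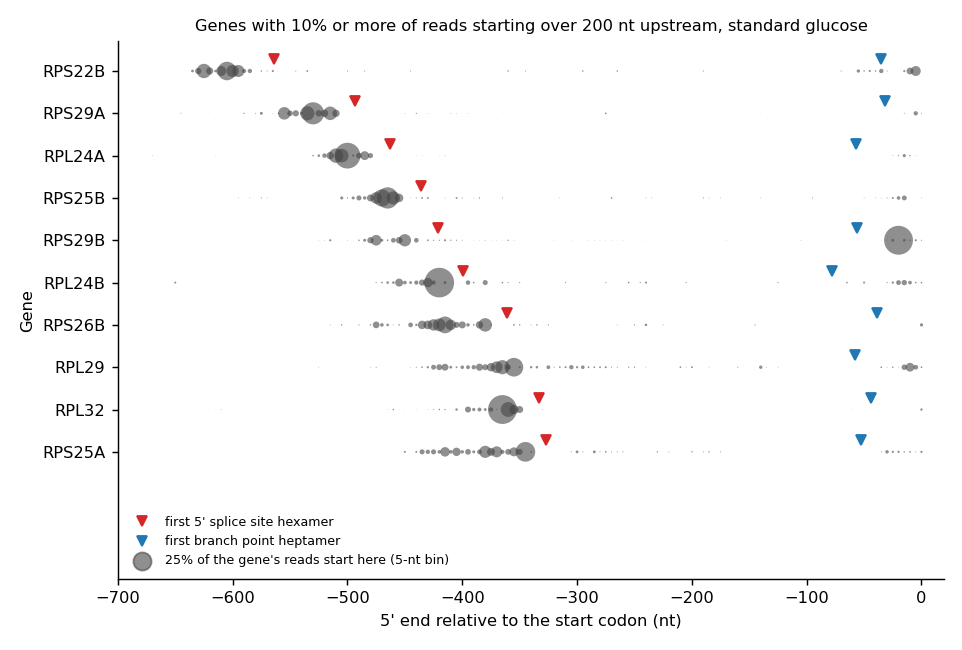
Position of 5' ends relative to the start codon (nt, horizontal) in standard glucose for 10 of the 12 genes with far starts; circle area is the percent of the gene's reads in a 5-nt bin, red triangles mark the first GTATGT and blue triangles the first TACTAAC. Starts lie left of the red triangle or right of the blue one, with few between them.

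Starts close to the end of an intron also occurred where the annotation lists the intron. Of 78028 standard glucose reads of ribosomal protein genes that ended past the stop codon but began within the coding stretch, 22529 (28.9%) began in an intron, and 17635 of these lay in its last 16 nt. In standard galactose the counts were 15189 of 60864, with 12173 in the last 16 nt. In non-capped glucose 6571 of 255072 such reads began in an intron, and 5020 of them in the last 16 nt. The most used intron start lay 11 bases before exon 2 in RPL19A (2164 reads), 9 in RPL20A (758), 10 in RPS30B (2460) and 8 in RPL13B (2261). Their windows show 17 bases before the start, with the last 3 bases of the intron in capitals.
RPL19A: acgataataactaacatgactttaaCAGgg
RPL20A: catgaaaatccttgttattttatCAGtggc
RPS30B: attttttttttttcaaattctcctTAGgct
RPL13B: ctaactgatttttttatgattaTAGctatc
They lie at chrII:414752-414781 (-), chrXIII:753739-753768 (-), chrXV:678377-678406 (-) and chrXIII:550797-550826 (-). In RPS27A and RPL35A the most used intron start was the last base of the intron, with 262 and 775 reads.

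Counted anywhere in the intron, intron starts went with a short distance between the molecule's start and the intron. Among 43 genes with a median leader and first coding exon of together at most 40 nt, reads starting in the intron made up a median of 2.08% of covering and intron-starting reads, and more than 10% in 11 genes. Among 45 genes with a longer distance the median was 0.182%, and RPS22B was the single gene over 10%. Of its 172 intron starts, 0 lay in the last 16 nt, and the most used lay 349 nt before exon 2. In RPS30B 3263 reads began in the intron and 1477 covered the coding stretch, a share of 68.8% in the intron. In RPS27A the share was 44.1%, in RPL20B 34.6% and in RPL19A 33.2%. The median number of covering reads was 5450 in the 43 genes, 15834 in the 45 and 8344 in the 48 genes without an annotated intron. The last set had no minimum of reads and includes RPS20 with 3. The sources used here do not give how reads across a splice junction were placed, and the part of this step in these starts, in the near start of RPS29B and in the levels of intron-containing genes was not tested. The use of the copies in pairs such as RPS30 and RPS27 includes genes with many intron starts.

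**Figure D5:**
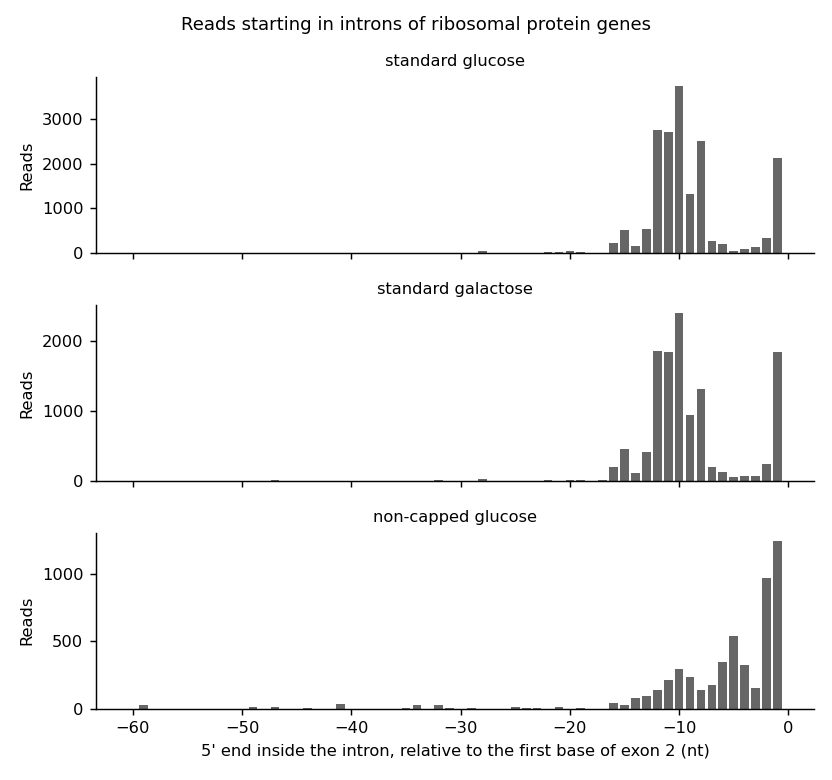
Reads of ribosomal protein genes whose 5' end lay in an annotated intron, by distance to the first base of exon 2 (nt), summed over genes, for standard glucose, standard galactose and non-capped glucose; bars are reads per position. The capped columns peak near 10 nt before exon 2 and at its edge, and the non-capped column is highest in the last 2 nt.

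Trailers, from the stop codon to the 3' end, had a median of 100 nt in standard glucose (quartiles 87 and 136), against 119 nt in the other genes. Their middle 80% covered 25 nt at the median, against 39 nt. The letters TATATA stood within the last 100 bases in 43.0% of ribosomal protein genes and 48.7% of other genes, and AATAAA in 31.1% and 21.6%. Copies of a pair differed by 47 nt in their median trailer at the median, and by over 50 nt in 26 of 59 pairs, more than in their leaders.

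RPS28B had the longest trailer, 646 nt, and one of the sharpest ends. Of its 2868 standard glucose reads 2208 ended at that base, as did 2737 of 3484 in standard galactose, 529 of 697 in long-enriched glucose and 757 of 998 in long-enriched galactose. The 10th and 90th percentiles were 646 and 649 nt. Its copy RPS28A ended at a median of 130 nt. The long trailer of RPS28B is known as the site through which Rps28 and the decapping enhancer Edc3 lower the level of the mRNA. RPS28B had ratios between media of 0.881 (0.838 to 0.926) and 0.998, the second with an interval that included 1.

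RPL8A came next with a median of 384 nt and the widest spread of 3' ends, 436 nt. Its 3' ends fell in separate groups: 1109 of 5977 reads ended at 491 nt, 509 at 58 nt and 355 at 372 nt. Ends beyond 300 nt made up 65.6% of reads in standard glucose and 75.4% in standard galactose. In the long-enriched columns they made up 93.8% and 94.2%. The copy RPL8B had a median trailer of 77 nt. RPL6B (254 nt), RPL38 (241 nt) and RPL9B (230 nt) followed.

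The shortest trailers were those of RPL34B and RPS31 (48 nt each), RPL15B (54 nt), RPS22B (56 nt) and RPS3 (59 nt). Besides RPL8A, the widest 3' spreads were 170 nt in RPL12A, 150 nt in RPL6B, 143 nt in RPL2A and 125 nt in RPL9B. RPL12A had ends at 80 nt (3645 of 12514 reads) and at 242 nt (1685 reads). Its median moved from 97 to 233 nt between media in the standard protocol and stayed at 238 nt in the long-enriched one. No ribosomal protein gene shifted its median trailer by 20 nt or more in both protocols. The shares over all genes were 0.15% longer and 1.13% shorter in galactose.

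The number of distinct isoforms, meaning pairs of a 5' and a 3' position, was compared at an equal depth of 50 reads. The median was 27.8 of 50 over 135 ribosomal protein genes in standard glucose and 29.4 over 2223 other genes. It was 27.9 in standard galactose. The fewest were found in RPS26A (11.0), RPL41A (13.6), RPS3 (15.2), RPL1B (15.3) and RPL21A (15.7). In RPS26A 74.1% of reads shared the 3' end at 69 nt, and in RPL41A 83.6% shared that at 210 nt. RPP2A reached 89.5% at its 3' end, yet its starts spread, with 25.2% at the most used. The most isoforms were found in RPS25B (43.7), RPS4A (43.5), RPL16A (42.8), RPL2A (42.4) and RPS25A (42.4). Values in standard galactose stayed within 4 of those in glucose for these 10 genes.

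Few molecules that began before the start codon ended within the gene. Pooled over ribosomal protein genes, 2129 of 2466252 did so in standard glucose (0.0863%), and 1.53% in the other genes. The median gene had 0.0168%, against 0.543% in the other genes. Median coding lengths were 435 nt in ribosomal protein genes and 960 nt in 2965 other genes. The part of length in the difference in inside ends was not tested. Genes with 0 such reads numbered 45 of 135, and 1275 of 3207 among the other genes. The highest shares were those of RPS9A (5.45%), RPS14B (3.23%), RPL26B (1.86%), RPL7B (1.74%) and RPL8B (1.01%).

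In 3 of these 5 genes the inside ends were largely a feature of the glucose columns. RPS14B had 348 inside ends among 10761 reads in standard glucose and 14 among 9563 in standard galactose, with 132 among 1800 and 7 among 1639 in the long-enriched columns. Its share was 3.23% and 0.146% in the standard protocol (difference -3.09 points, -3.44 to -2.75), and 7.33% and 0.427% in the long-enriched one (-6.91 points, -8.22 to -5.70). RPS9A had 228 among 4182, 51 among 5747, 123 among 1514 and 17 among 1770. Its shares were 5.45% and 0.887%, and 8.12% and 0.960%. RPL7B had 158 among 9083, 1 among 5717, 53 among 2502 and 2 among 1733.

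Over 2881 genes with at least 20 such reads in each capped column, the share in galactose was lower by 1 point or more in each protocol, with intervals that left out 0, in 1.56%, and higher in 0.382%. Of 132 ribosomal protein genes 3 fell (2.27%), the 3 just named, and 0 rose. This rule was chosen after the values were seen, and the share of ribosomal protein genes is near that of all genes. The inside ends of RPS14B were spread over 74 positions in standard glucose, with a median 504 bases after the first base of the start codon and an intron that ends at base 417. Those of RPS9A took 59 positions with a median at 544, after an intron that ends at 507. Those of RPL7B took 36 positions with a median at 476, after a first intron that ends at 419. In all 3 genes the median lay after an intron. RPL26B and RPL8B were different. In RPL26B 298 of 299 inside ends lay in the intron, and 291 of them had at least 6 A among the next 10 genomic bases, as had 127 of 129 in RPL8B. This held for 1 of 348 in RPS14B, 18 of 228 in RPS9A and 44 of 158 in RPL7B. RPL26B had 2.83% inside ends in standard galactose, and 3.89% and 3.07% in the long-enriched columns.

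The non-capped libraries hold polyadenylated molecules whose 5' end carries no cap, as decay intermediates do. Of 275236 non-capped glucose reads that ended past the stop codon of a ribosomal protein gene, 92.7% (92.6 to 92.8) began inside the coding stretch, and 89.9% of 191696 in galactose. In the other genes the shares were 94.7% and 93.7%. In the standard capped columns they were 3.07% and 2.89% for ribosomal protein genes and 8.28% and 10.2% for others. Per gene the quartiles in non-capped glucose were 85.3% and 99.1% over 134 genes, and the median in galactose was 93.1% over 132. Each non-capped column is a single library, and its reads were repeated, with 14.8 reads per distinct pair of ends in glucose and 29.4 in galactose.

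Among the lowest non-capped shares in glucose were those of RPS29A (54.8% of 560 reads), RPS29B (63.2% of 2882), RPL41A (67.1% of 1044) and RPP1B (67.2% of 865). The share was 100% in 17 of 134 genes, and in 2665 of 3523 other genes, whose median was 100%. The most read of the 17 were RPL2A (2511 reads), RPL43B (1629), RPS9A (1554), RPL20B (1078) and RPL43A (993). In galactose RPS29A stood lowest again, with 3 of 236 reads inside (1.27%). The capped share of RPS29A was 0.463% in standard glucose. RPS30B, by contrast, had 69.1% of its standard glucose reads starting inside, and most of these were the intron starts described above.

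The inside starts of ribosomal protein genes were fewest in the last of 3 equal parts of the coding sequence, in non-capped and capped molecules alike. Counted as distinct pairs in non-capped glucose, 42.6% lay in the first part, 41.2% in the second and 16.3% in the last. Counted as reads, the second part held most, with 40.3%, 43.0% and 16.7%. Reads in non-capped galactose gave 39.7%, 41.4% and 18.9%. By pairs, the capped inside starts of the same genes lay earlier. Their shares were 54.0%, 33.8% and 12.1% in standard glucose and 49.1%, 36.2% and 14.7% in standard galactose. In other genes the non-capped glucose shares by pairs were 18.6%, 34.0% and 47.5%. The coding lengths differ, with a median of 435 nt in ribosomal protein genes and 960 nt in others, and the part of length and of span in this difference was not tested. Starts were also not spread evenly over the codon. Leaving out 30 nt at the start and 60 nt before the stop, 36.0% (35.2 to 36.7) of 15146 distinct pairs in non-capped glucose began at the second base of a codon, and 37.2% (35.9 to 38.6) of 5252 in galactose, where equal use would give 33.3%. Other genes had 38.0% and 36.7%. The few inside starts of the standard glucose column were at the second base in 36.0% of 16050 pairs in ribosomal protein genes and in 41.4% in other genes. In standard galactose the values were 34.4% and 35.3%.

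Molecules that covered a ribosomal protein gene and a neighbour were rare, at 599 of the standard glucose reads and 0 in both non-capped columns. The largest set joined RPS26A and YGL188C-A, with 355 reads in standard glucose, 372 in standard galactose, 34 and 55 in the long-enriched columns. RPS16B and RPP1A were joined by 23, 23, 3 and 1. RPL9A was joined to RRT6 by 4, 37, 8 and 259 reads, and so mainly in the galactose columns.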

How the data were processed

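The authors deposited read counts per joined 5' and 3' position, with the libraries of a kind summed into 6 columns, per the file headers. Novoalign 2.07.10, CASAVA and the build R64 are named in the submitters' processing notes. The sources used here do not give whether PCR copies were collapsed or how spliced reads were placed. All 6 columns were used and 0 were left out, and every position lay within its R64 chromosome.

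A read counted for a gene when it covered the coding stretch from start to stop codon, introns included, on the same strand and covered no other gene. Starts and ends inside a gene were counted apart. Replicate tests could not be run because libraries are summed. In their place stand exact Poisson ratio intervals, Wilson intervals and Newcombe intervals, all at 95%, with a minimum of 20 reads per protocol, gene and column or pair. Log2 ratios used 0.5 reads as pseudocount and TMM scaling (edgeR 4.0.16, R 4.3.3), with DESeq2 1.42.0 size factors as an alternative. The cultures behind the long-enriched libraries also went into the standard columns, so the protocols repeat the measurement technically. The standard galactose column holds other cultures besides, so protocols can differ there by culture too.

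Near-identical copies were matches of spliced coding sequences in blastn 2.17.0 of at least 90% identity over 80% of the length. Distinct isoforms are the expected number among 50 reads. Sequences were read from the R64 genome and annotation of RefSeq. The call rule was run on simulated Poisson counts with known changes larger than 2-fold, scaled by a median ratio instead of TMM. The simulation held no PCR copies and no variation between cultures, so it cannot show how the rule behaves under these. Computation used scipy 1.17.1, numpy 2.4.6 and pandas 2.3.3 under Python 3.11.15, with figures from matplotlib 3.10.9 and sequences read with Biopython 1.88. The genes and lists were chosen with earlier results of these data known. Named genes are all called genes, the 3 highest and 3 lowest ratios, the 6 most uneven and 4 most even pairs, the 5 genes at each extreme of leaders, trailers, isoforms and non-capped starts, the 5 widest spreads and highest inside ends, and a list of genes known for regulation or structure. Genes with far starts or intron starts, RPS2 and RPL12A for their ends, RPS20 and RPL39, those that fell in the long-enriched columns and the molecules over 2 genes were chosen after their values were seen. Some genes and pairs that this rule names are not reported here, and are left out of the plots that label genes or pairs.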

Additional observations from a re-analysis of the deposited data

Results flagged for a closer look

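RPL21 was the single pair whose share moved opposite ways in the protocols with both intervals excluding 0: the share of RPL21A changed from glucose to galactose by -3.95 percentage points in the standard protocol and by 11.7 in the long-enriched one, where RPL21A had 33 and 128 reads. The difference between the protocols was not tested, as each value comes from 1 pair of summed columns.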

How the results depend on the processing

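The median log2 ratio between media kept its sign under all 6 alternatives. It was -0.11 with scaling by total reads, which moved the median of all genes by 0.47 (standard) and 0.15 (long-enriched), and lay between -0.59 and -0.54 otherwise. Genes called lower numbered 3, but 0 with scaling by total reads and 1 when genes with a near-identical copy were left out, since RPL18B and RPL7B have such a copy; 0 were called higher under each alternative. Over all genes, 231 higher and 90 lower became 351 and 56 with scaling by total reads. Pairs that changed numbered 0, and 8 with a limit of 5 percentage points; the other alternatives left the count at 0, and the median share of the more used copy stayed between 72.4% and 74.3%. Leader lengths and both spreads moved by at most 1 nt, and the trailer median was 102 nt in the long-enriched column. Isoforms per gene were 68.9 among 200 reads and 19.2 in bins of 5 nt. The median non-capped share inside was 88.5% without the first 50 nt and 93.1% in galactose. The median share of reads ending inside was 0% in the long-enriched column and 0% with pairs of ends seen at least 2 times. No paired analysis was possible because the libraries of a group are summed in 1 column; for the same reason no replicate could be left out. Low read counts limit RPL39 and RPS20 in every column, and long-enriched values such as those of RPL21A, RPL33A, RPL25, RPS27A and RPL15B. The cause of these low counts was not tested.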
